A study of Mus musculus with 6 samples.

Results

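The Sprouty and Spred genes encode feedback inhibitors of receptor tyrosine kinase signalling, and 6 of them, *Spry1*, *Spry2*, *Spry4*, *Spred1*, *Spred2* and *Spred3*, were followed here in a mouse podocyte line (MPCs) among 24469 loci with an FPKM value (fragments per kilobase of transcript, scaled by the mapped fragments of the library, a level per length). Each member was taken by its symbol in the gene names of a locus. Among several loci of a symbol, the locus was to be chosen by its measured mean FPKM over the 6 libraries (the highest), but each of the 6 symbols was found in 1 locus only. All 6 members were among the 10562 loci that reached a mean of 1 FPKM and were tested. *Spry4* reached it only through the libraries with FGF1. *Spry3*, the remaining Sprouty gene of the reference annotation, was not analysed here. The members were chosen with earlier results of these libraries known.

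The libraries formed 3 groups of 2, all of them in high glucose (HG, 25 mM for 12 h). The HG group received no FGF1, the rFGF1WT group received recombinant wild-type human FGF1, and the rFGF1ΔHBS group received a partial agonist with substitutions in the heparan sulfate binding site. Both proteins were given at 100 ng/mL, 1 h before the glucose, to cells that had been starved for 12 h. Before that, the conditionally immortalized cells had been grown at 33 °C with interferon gamma (50 U/mL) and differentiated without it at 37 °C for 10 days, in all groups alike. Libraries in normal glucose were not analysed here, so each comparison was made within HG and describes the response to FGF1 and not to glucose. Nothing in the labels says whether the 2 replicates of a group came from separate cultures, and p-values then measure only the spread between these samples.

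In general terms, a bound FGF receptor recruits the adaptors FRS2 and GRB2, which lead through SOS, RAS and RAF to the kinases MEK and ERK. Sprouty and Spred proteins are made in response to this cascade and act back on it. Sprouty proteins are phosphorylated on a tyrosine that is recognised by the ubiquitin ligase CBL, and they interfere with the path from the receptor to RAS or RAF, while Spred proteins carry the RAS GTPase-activating protein neurofibromin (NF1) to the membrane, where RAS is switched off. Sprouty genes are best known in the kidney for their part in the branching of the ureteric bud, where *Spry1* limits signalling through the receptor RET.

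The labelled cell type was checked on its markers. Of 12 podocyte markers, 11 were in the table and 5 had a mean FPKM of at least 1. *Actn4* (96.6), *Cd2ap* (60.7), *Podxl* (16.04) and *Synpo* (6.82) were measured well, whereas the defining markers *Nphs1* (mean FPKM 0.781) and *Wt1* (0.0376) were near 0. Markers of other cells were present as well, among them *Cdh16* (77.4) and *Aqp1* (28.3) of tubular cells, *Pdgfrb* (28.6) of mesangial cells and *Cd68* (61.2) of macrophages, while *Ptprc* (0.0275), *Adgre1* (0.00446) and *Pecam1* (0.0386) were near 0. Some of these sums moved with FGF1. The summed FPKM of the 3 tubular markers in the table was 157.8 to 158.4 in HG, 115.5 to 118.4 with rFGF1WT and 108.8 to 122.0 with rFGF1ΔHBS, the sum of the 11 podocyte markers was 163.4 to 169.5, 185.1 to 199.8 and 186.2 to 189.8, and the sum of the 5 mesangial markers, mostly *Pdgfrb*, was 34.3 to 35.03, 29.3 to 30.6 and 29.3 to 30.5. Single podocyte markers went both ways. *Actn4* was at 86.4 and 83.2 in HG and 99.7 to 106.0 with FGF1, whereas *Synpo* was at 9.58 and 10.2 in HG and 4.01 to 6.83 with FGF1. The sum of the 5 macrophage and leukocyte markers was 60.9 to 62.8 in HG and 66.9 to 71.2 with FGF1, made up of *Cd68* at 53.1 and 50.1 in HG and 63.1 to 67.3 with FGF1 and of *Csf1r* at 9.56 and 10.7 in HG and 3.21 to 3.94 with FGF1. That of the 5 endothelial markers, mostly *Ehd3*, was 3.29 to 3.54 and 1.17 to 3.0. The part of these differences in the results below was not tested, and in bulk libraries a change in the share of cells cannot be told apart from a change in RNA per cell.

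Every member had a higher mean FPKM with either FGF1 protein than in HG. The sum of the 6 members was 19.2 and 26.3 FPKM in the HG libraries, 52.0 and 60.9 with rFGF1WT, and 62.6 and 74.0 with rFGF1ΔHBS. For *Spry1*, *Spry2*, *Spry4*, *Spred2* and *Spred3*, all 4 libraries with FGF1 lay above both HG libraries, a pattern shown by 17.1% of the loci tested, and for *Spred1* 3 of the 4 did. On the scale of log2(FPKM + 1), the median difference of the 6 members from HG was 0.82 with rFGF1WT and 1.17 with rFGF1ΔHBS, against -0.04 and -0.04 over all loci tested, of which 43.7% and 44.3% were higher with FGF1.

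Fewer members passed the test. Differences were tested with limma on log2(FPKM + 1) over all 10562 loci, and a call was a Benjamini-Hochberg adjusted p under 0.05. With rFGF1WT, 2 of 6 members rose (*Spry2* and *Spry4*), where 3.26% of all tested loci were called higher and 2.94% lower. With rFGF1ΔHBS, 2 of 6 rose (*Spry4* and *Spred3*), where 3.37% were called higher and 2.89% lower. *Spry4* rose with both proteins, and 4 of 6 members had an unadjusted p under 0.05 in each comparison, as had 24.8% of all tested loci with rFGF1WT and 24.9% with rFGF1ΔHBS. With a change of at least 2-fold on this scale also required, 1 member (*Spry4*) was left for rFGF1WT, against 0.521% of loci, and 2 (*Spry4* and *Spred3*) for rFGF1ΔHBS, against 0.454%. The comparisons with HG share the HG libraries.

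**Figure D1:**
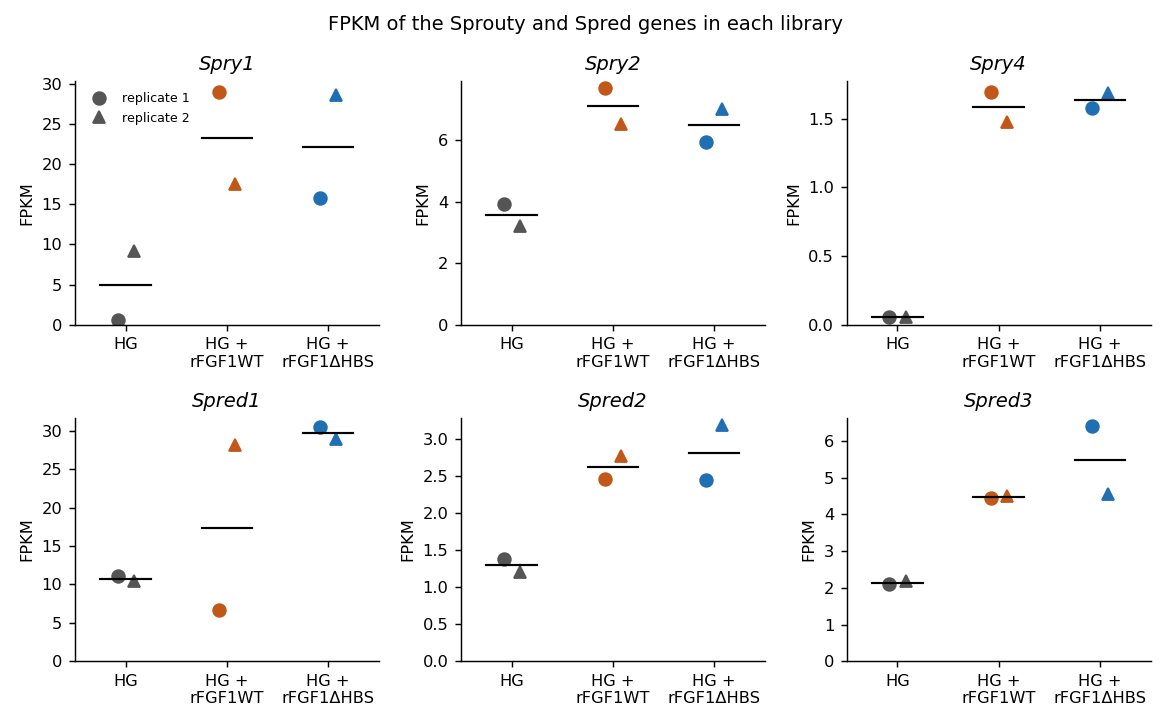
FPKM (vertical axis, linear from 0, its own range for each gene) of the 6 members in the 2 HG, 2 rFGF1WT and 2 rFGF1ΔHBS libraries; points are libraries, the shape gives the replicate number and black bars are group means. The 4 libraries with FGF1 lay above both HG libraries for each gene but *Spred1*, whose rFGF1WT replicate 1 was at 6.73, and the 2 HG libraries of *Spry1* stood at 0.647 and 9.20.

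Among the Sprouty genes, *Spry4* showed the clearest change. The gene, an inhibitor of the path from growth factor receptors to RAS and ERK, lies on chromosome 18 (GRCm38, 38586247 to 38601415, minus strand), and its locus (ENSMUSG00000024427) held 1 coding transcript of 2 exons and 4755 bases. It was nearly silent in HG, at 0.0568 and 0.0590 FPKM, and stood at 1.69 and 1.48 with rFGF1WT and at 1.58 and 1.69 with rFGF1ΔHBS. The 3 groups thus fell into a low and a high set with no overlap between HG and either protein, and the ranges of the 2 proteins overlapped. Group means were 0.0579 ± 0.00154 in HG, 1.58 ± 0.152 with rFGF1WT and 1.63 ± 0.0770 with rFGF1ΔHBS (SD, n = 2), a ratio to HG of 27.3 and 28.2. On the log2(FPKM + 1) scale, which shrinks the change of a gene this low, the difference was 1.29 with rFGF1WT (95% interval 1.03 to 1.55; adjusted p = 0.0130, limma) and 1.32 with rFGF1ΔHBS (adjusted p = 0.0140, limma). With a pseudocount of 0.1 in place of 1 it was 3.41 and 3.46. The mean of *Spry4* over the 6 libraries was 1.09 FPKM, so the gene entered the test only through the libraries in which it was high. With no filter on the mean it was called with rFGF1WT (adjusted p = 0.0252, limma) and with rFGF1ΔHBS (adjusted p = 0.0262, limma). Low FPKM values multiplied by transcript length recurred at 1 common step per library. The HG values of *Spry4* equalled 6.21 and 6.28 such steps and those with FGF1 158.87 to 181.59, but 200 to 261 values per library lay at 0.5 of a step, so the number of fragments is not known. Leaving out 1 library leaves fewer libraries to estimate the spread of every locus, and fewer loci were then called against HG over the whole table. In such fits some calls of *Spry4* were lost by a small margin. Without HG replicate 1 the adjusted p was 0.0561 with rFGF1WT and 0.0583 with rFGF1ΔHBS (limma), at nearly the same differences (1.28 and 1.31). Without rFGF1WT replicate 1 it was 0.0504 for rFGF1WT. For rFGF1ΔHBS it was 0.0502 without HG replicate 2, and 0.0544 and 0.0569 without replicate 1 or replicate 2 of its own group.

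*Spry2*, which binds CBL and GRB2 after growth factor stimulation, was expressed in every library. Its FPKM was 3.93 and 3.20 in HG, 7.70 and 6.52 with rFGF1WT, and 5.94 and 7.03 with rFGF1ΔHBS. Both proteins lay above HG with no overlap, and the replicates of each group stayed close (means 3.56 ± 0.516, 7.11 ± 0.839 and 6.48 ± 0.771; SD, n = 2). The log2 difference was 0.83 with rFGF1WT (SE 0.139, adjusted p = 0.0492, limma), only just past the threshold, and 0.71 with rFGF1ΔHBS, which was not called (adjusted p = 0.0648, limma). With the 4 libraries of HG and rFGF1WT alone, the rFGF1WT difference was not called (adjusted p = 0.0920, limma). The rFGF1WT call was lost on leaving out any of the 6 libraries, with differences of 0.71 to 0.95 and adjusted p-values of 0.0917 to 0.164 (limma), the highest of them without rFGF1WT replicate 1.

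*Spry1*, the family member known for restraining RET signalling in the developing kidney, was the most variable Sprouty gene. It lies on chromosome 3 (GRCm38, 37639947 to 37644598, plus strand), and its locus also took in *Gm43820*, an unverified gene that begins after 8 bases on the same strand, so fragments of both are summed in 1 value. Its FPKM was 0.647 and 9.20 in HG, 29.0 and 17.5 with rFGF1WT, and 15.7 and 28.7 with rFGF1ΔHBS. The 2 HG replicates differed 14.2-fold. All 4 libraries with FGF1 were higher than either, and the ranges of the 2 proteins overlapped. The log2 difference was 2.52 with rFGF1WT (95% interval -0.07 to 5.11; adjusted p = 0.209, limma) and 2.44 with rFGF1ΔHBS (-0.15 to 5.03; adjusted p = 0.220, limma), the widest intervals of the 6 members. Without HG replicate 1 the differences were 1.21 and 1.13, and without HG replicate 2 they were 3.84 and 3.76. The residual SD of *Spry1* was 1.16 on the log2 scale, at percentile 97.2 of all tested loci.

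Replicates this far apart were found in all groups. A difference of at least 2 on the log2 scale between replicates was seen at 1.80% of tested loci in HG, 2.01% with rFGF1WT and 1.79% with rFGF1ΔHBS. The lower value was in replicate 1 at 87 loci and in replicate 2 at 103 loci in HG, so HG replicate 1 was not low in general. Over the tested loci, r between replicates was 0.916 to 0.923 and r between libraries of different groups was 0.895 to 0.924. The FPKM sums of the 6 libraries over the whole table were within 179594 to 185168. Read depth is not in the table, but the common steps described for *Spry4* gave relative depths of 0.972 to 1.01.

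**Figure D2:**
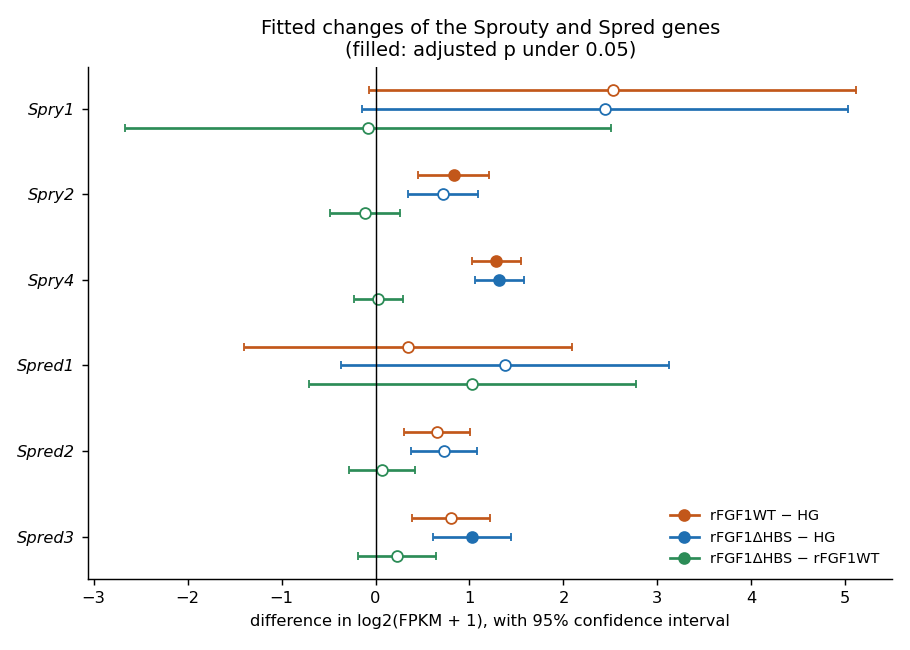
Fitted difference in log2(FPKM + 1) (horizontal axis) of each member for rFGF1WT minus HG, rFGF1ΔHBS minus HG and rFGF1ΔHBS minus rFGF1WT; bars are 95% confidence intervals from limma over 6 libraries and filled points have an adjusted p under 0.05. All 12 points against HG lie above 0 and 4 of them are filled, and the intervals of *Spry1* and *Spred1* are several times as wide as those of *Spry4*.

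The Spred genes encode proteins that share a cysteine-rich Sprouty domain with the Sproutys and have an EVH1 domain at the other end. *Spred3* was the only one of them to pass the test. It lies on chromosome 7 (GRCm38, 29158829 to 29170411, minus strand) in a locus of 5 transcripts, 1 of them coding. Its FPKM was 2.10 and 2.18 in HG, 4.46 and 4.50 with rFGF1WT, and 6.41 and 4.54 with rFGF1ΔHBS. HG was low in both replicates, and every library with FGF1 was above it. Means were 2.14 ± 0.0573, 4.48 ± 0.0297 and 5.48 ± 1.32 (SD, n = 2). The log2 difference was 1.03 with rFGF1ΔHBS (adjusted p = 0.0393, limma) and 0.80 with rFGF1WT, which was not called (SE 0.154, adjusted p = 0.0656, limma). Both depended on which libraries entered the fit. With the 4 libraries of a comparison alone, the adjusted p was 0.0944 with rFGF1ΔHBS and 0.04895 with rFGF1WT (limma), so the call passed from the former to the latter. For rFGF1ΔHBS, the adjusted p was 0.0601 to 0.153 when 1 library other than rFGF1ΔHBS replicate 2 was left out, and 0.0339 (difference 1.24) without that replicate. For rFGF1WT it was 0.0489 and 0.0483 without replicate 1 or replicate 2 of rFGF1ΔHBS.

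*Spred2*, which also works through NF1, lies on chromosome 11 (GRCm38, 19924375 to 20024026, plus strand). Its FPKM was 1.38 and 1.21 in HG, 2.45 and 2.77 with rFGF1WT, and 2.44 and 3.18 with rFGF1ΔHBS. Again no library with FGF1 overlapped HG. Means were 1.29 ± 0.123, 2.61 ± 0.227 and 2.81 ± 0.525 (SD, n = 2). The log2 differences of 0.66 (adjusted p = 0.0708, limma) and 0.73 (adjusted p = 0.0559, limma) were not called.

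*Spred1*, the gene whose loss of function causes Legius syndrome, lies on chromosome 2 (GRCm38, 117121374 to 117182279, plus strand) in a locus of 2 coding transcripts. Its FPKM was 11.1 and 10.4 in HG, 6.73 and 28.1 with rFGF1WT, and 30.5 and 28.8 with rFGF1ΔHBS. Here the 2 rFGF1WT libraries lay on either side of HG, 4.17-fold apart, while both rFGF1ΔHBS libraries stood well above it. Means were 10.8 ± 0.509, 17.4 ± 15.1 and 29.7 ± 1.16 (SD, n = 2). The log2 difference was 0.35 with rFGF1WT (95% interval -1.40 to 2.10; adjusted p = 0.778, limma) and 1.38 with rFGF1ΔHBS (-0.36 to 3.13; adjusted p = 0.287, limma).

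The result for *Spred1* depended on both rFGF1WT libraries. Without replicate 1, the rFGF1WT difference was 1.30 (adjusted p = 0.0279, limma), with the lone rFGF1WT library assumed to vary like the other groups, and the rFGF1ΔHBS difference of 1.38 had an adjusted p of 0.0280 (limma). Without rFGF1WT replicate 2 in its place, the rFGF1WT difference turned to -0.60 and the rFGF1ΔHBS difference of 1.38 had an adjusted p of 0.0279 (limma). With the 4 libraries of HG and rFGF1ΔHBS alone, the latter was 0.0278 (limma). The residual SD of *Spred1* in the fit of all 6 libraries was 0.78 on the log2 scale, at percentile 94.6 of all tested loci. What made the 2 libraries differ was not tested.

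**Figure D3:**
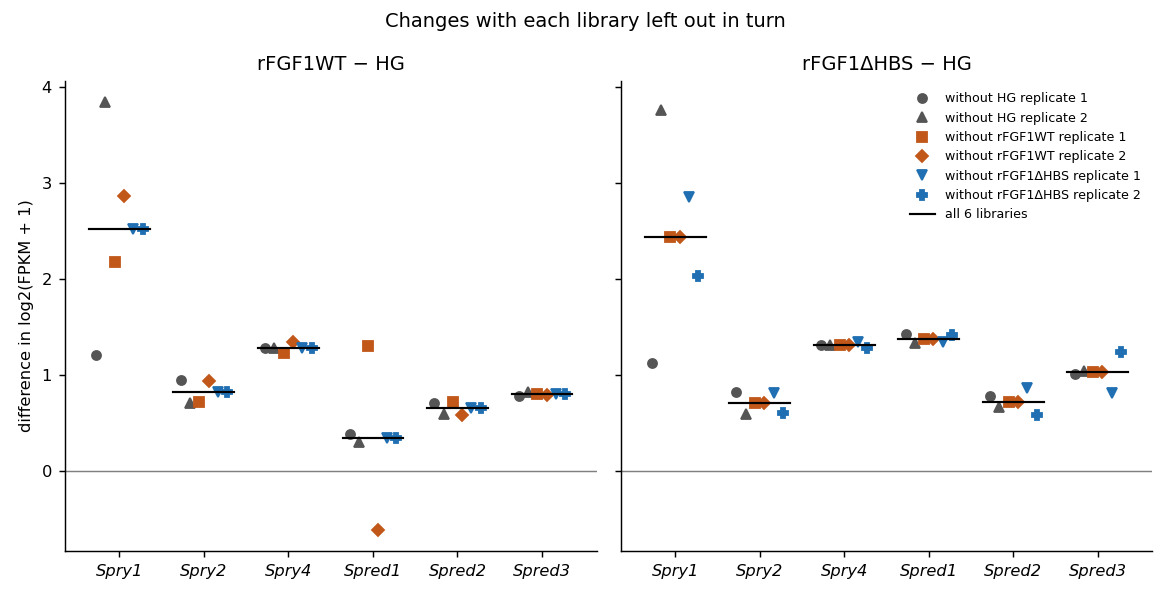
Difference in log2(FPKM + 1) (vertical axis) of each member from HG, for rFGF1WT (left) and rFGF1ΔHBS (right), with all 6 libraries (black bars) and with each library left out in turn (points, by library). *Spry1* ranged from 1.21 to 3.84 with rFGF1WT and *Spred1* from -0.60 to 1.30, whereas *Spry4* stayed between 1.23 and 1.35.

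The rFGF1ΔHBS and rFGF1WT libraries were compared directly at the same dose and time, to ask whether the protein with the altered heparan sulfate binding site differed from the wild type in its effect on these genes. None of the 6 members was called with limma, where 0.549% of tested loci were, and 0 of 6 had an unadjusted p under 0.05, as had 4.87% of tested loci, so that a count of 0 among 6 genes says little. The median difference was 0.05, against 0.00 over all loci (log2 scale). For *Spry4* the difference was 0.03 (95% interval -0.23 to 0.29), for *Spred2* 0.07 (-0.28 to 0.42), for *Spry2* -0.12 (-0.49 to 0.26) and for *Spred3* 0.23 (-0.19 to 0.64). These intervals leave room for differences of up to about that size in either direction and do not show that the proteins act alike.

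For the other members the interval was too wide to compare the proteins, at -0.08 (-2.67 to 2.51) for *Spry1* and 1.03 (-0.71 to 2.78) for *Spred1*. The *Spred1* value was 1.99 (adjusted p = 0.0176, limma) without rFGF1WT replicate 2, and 0.08 without rFGF1WT replicate 1. Without *Spry1* and *Spred1*, the summed FPKM of the remaining 4 members was 7.47 and 6.65 in HG, 16.3 and 15.3 with rFGF1WT, and 16.4 and 16.4 with rFGF1ΔHBS.

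FPKM is per length, so levels of the members can be ranked. In HG the order was *Spred1* (10.4 to 11.1), *Spry2* (3.20 to 3.93), *Spred3* (2.10 to 2.18), *Spred2* (1.21 to 1.38) and *Spry4* (0.0568 to 0.0590), with no overlap between neighbours. *Spry1*, at 0.647 and 9.20, could not be placed among them. With rFGF1WT, *Spry1* (17.5 to 29.0) and *Spred1* (6.73 to 28.1) overlapped, *Spry2* (6.52 to 7.70) overlapped the low *Spred1* library, and *Spred3* (4.46 to 4.50), *Spred2* (2.45 to 2.77) and *Spry4* (1.48 to 1.69) followed without overlap. With rFGF1ΔHBS, *Spred1* (28.8 to 30.5) was just above *Spry1* (15.7 to 28.7). *Spry2* (5.94 to 7.03) and *Spred3* (4.54 to 6.41) overlapped, and *Spred2* (2.44 to 3.18) and *Spry4* (1.58 to 1.69) came last. *Spry4* therefore had both the lowest level and the highest ratio to HG of the 6 members in these libraries.

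Reference promoter sequences were examined for motifs of factors known to act downstream of growth factor signalling. The promoter table of RefSeq (GRCm38.p6), which gives 250 bases before to 50 after each gene's start, matched 5 of the 6 members (*Spry1*, *Spry2*, *Spred1*, *Spred2* and *Spred3*), and *Spry4* is named only. The 250 bases upstream are shown for *Spry2* and *Spred3*, the members in that table that were called in a comparison with HG. The *Spry2* stretch is chr14:105896820-105897069 and the *Spred3* stretch is chr7:29168648-29168897, both given 5′ to 3′ on the minus strand. The latter precedes the start given by RefSeq but lies inside the span of the gene in the reference annotation (29158829 to 29170411). The third stretch is chr14:105896770-105896798, also on the minus strand and inside the first, untranslated exon of *Spry2*, and its capitals mark the word searched for.
Spry2 upstream: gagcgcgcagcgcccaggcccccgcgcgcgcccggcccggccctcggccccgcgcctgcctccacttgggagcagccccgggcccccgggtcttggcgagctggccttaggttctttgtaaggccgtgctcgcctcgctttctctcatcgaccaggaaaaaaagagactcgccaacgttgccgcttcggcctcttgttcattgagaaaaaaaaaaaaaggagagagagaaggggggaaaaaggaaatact
Spred3 upstream: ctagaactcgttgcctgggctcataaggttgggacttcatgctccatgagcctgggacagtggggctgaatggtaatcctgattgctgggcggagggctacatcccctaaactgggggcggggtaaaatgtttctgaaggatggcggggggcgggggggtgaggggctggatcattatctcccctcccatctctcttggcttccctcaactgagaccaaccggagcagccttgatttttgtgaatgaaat
Spry2 first exon: aggtcatctatcCCGGAAtccgggagggt

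The capitals mark CCGGAA, a core of ETS factor sites, searched on both strands. It was found in the 300-base promoter of 1 of the 5 members, *Spry2*, and in 14.9% of 32851 promoters of that length. None of the 5 held TGANTCA (AP-1; 7.81% of all promoters), TGACGTCA (cyclic AMP response element; 1.79%), TGTTTAC (FOXO; 3.65%) or the CArG box of serum response factor (1.63%), also on both strands. A match is a description of these letters and no match says only that they are not in this window. The GC content of the promoters was 72.3% (*Spred1*), 64.3% (*Spry1*), 62.7% (*Spry2*), 57% (*Spred2*) and 55.0% (*Spred3*). The median over all promoters was 52.7%, which the last 2 were close to.

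Genes of the cascade that the Sprouty and Spred proteins act on were counted next. Of all tested loci, 3.26% were called higher and 2.94% lower with rFGF1WT, and 3.37% and 2.89% with rFGF1ΔHBS. Of 20 tested genes of the cascade from FGF receptor adaptors to ERK, 0 were called higher and 1 lower with each protein. That gene was *Gab1*, an adaptor that joins receptors to SHP2 and PI3K, with 10.3 and 10.7 FPKM in HG, 6.63 and 6.44 with rFGF1WT and 7.93 and 7.49 with rFGF1ΔHBS. Its log2 difference was -0.60 (adjusted p = 0.0189, limma) and -0.40 (adjusted p = 0.0405, limma). The list medians were -0.09 and -0.07, near those of all loci. In this list, 6 and 9 of the 20 genes had an unadjusted p under 0.05, beside 24.8% and 24.9% of all tested loci. The count of 1 was 0 with rFGF1WT on leaving out any of the 6 libraries, and 0 with rFGF1ΔHBS on leaving out any but rFGF1ΔHBS replicate 2.

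Of 15 tested partners and regulators of the members, 1 was called higher and 1 lower with rFGF1WT, against 3.26% and 2.94% of all tested loci. With rFGF1ΔHBS 0 were called, against 3.37% higher and 2.89% lower over all tested loci. Of the 15, 5 had an unadjusted p under 0.05 with rFGF1ΔHBS (limma), as had 24.9% of all tested loci. The list medians were 0.07 and 0.07. *Egln1*, a prolyl hydroxylase known chiefly as an oxygen sensor, was at 8.45 and 8.46 FPKM in HG, 17.4 and 18.7 with rFGF1WT, and 8.69 and 9.08 with rFGF1ΔHBS. Only the rFGF1WT libraries stood apart, with a log2 difference from HG of 1.01 (adjusted p = 0.00900, limma), and the proteins differed from each other by -0.94 (rFGF1ΔHBS minus rFGF1WT; adjusted p = 0.0203, limma). The call between the proteins was lost without HG replicate 1 or 2, rFGF1WT replicate 2, or rFGF1ΔHBS replicate 1 or 2, and the list count of 2 with rFGF1WT was 0 without HG replicate 1 and 1 without any other single library. It was the only list gene outside a wider annotation class described below that was called between the proteins. *Mknk1*, an ERK-activated kinase, fell with rFGF1WT (-0.38, adjusted p = 0.0403, limma), from 6.39 and 6.48 FPKM to 4.61 and 4.80. It was 5.05 and 5.03 with rFGF1ΔHBS, which was not called (adjusted p = 0.0620, limma).

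The genes described next encode proteins that bind a member directly, and none of them was called. *Cbl* had 6.94 and 6.70 FPKM in HG and 7.88 to 8.89 with FGF1, and *Grb2* had 33.0 and 34.4 in HG and 27.5 to 29.1 with FGF1. *Nf1*, the partner of the Spreds, was at 6.81 and 6.98 in HG and 7.06 to 7.48 with FGF1 (log2 differences 0.07 and 0.07). *Siah2*, a ubiquitin ligase of SPRY2, had 4.26 and 3.49 FPKM in HG and 5.38 to 6.09 with FGF1 (log2 differences 0.48 and 0.43, adjusted p = 0.0860 and 0.0998, limma). *Tesk1*, a kinase bound by Sprouty proteins, had 3.58 and 3.88 FPKM in HG and 5.67 and 6.94 with rFGF1ΔHBS. Its rFGF1WT replicates, at 7.02 and 3.50, were as far apart as the groups. The log2 differences were 0.35 and 0.62 (adjusted p = 0.530 and 0.301, limma).

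Other feedback inhibitors of receptor tyrosine kinases and ERK were counted in the same way. Of 12 tested, 11 had a positive difference with each protein, as had 43.7% and 44.3% of all tested loci. The medians were 0.51 and 0.51. With each protein 2 were called higher and 0 lower, beside 3.26% and 3.37% of all tested loci called higher. The 2 calls fell to 0 with rFGF1WT without HG replicate 1 or 2 or rFGF1WT replicate 2, and to 1 without any other single library. With rFGF1ΔHBS they fell to 0 without HG replicate 1 or 2 or rFGF1ΔHBS replicate 2, and to 1 without rFGF1ΔHBS replicate 1. *Dusp5*, a nuclear phosphatase of ERK, had 1.34 and 1.16 FPKM in HG, 3.76 and 3.56 with rFGF1WT and 3.57 and 3.72 with rFGF1ΔHBS, a log2 difference of 1.05 (adjusted p = 0.0131, limma) and 1.04 (adjusted p = 0.0140, limma). *Errfi1*, an inhibitor of the EGF receptor family, had 6.89 and 6.42 FPKM in HG and 10.3 to 13.9 with FGF1, with log2 differences of 0.70 (adjusted p = 0.0423, limma) and 0.95 (adjusted p = 0.0226, limma). *Dusp6*, the cytoplasmic ERK phosphatase, had 2.96 and 3.67 FPKM in HG, 10.4 and 9.38 with rFGF1WT, and 9.90 and 26.3 with rFGF1ΔHBS, and was not called (adjusted p = 0.179 and 0.0882, limma). *Il17rd*, also called Sef, had 4.81 and 4.90 in HG and 6.44 to 7.79 with FGF1, and was not called (adjusted p = 0.0779 and 0.0745, limma). The one gene lower with both proteins, *Fgfrl1*, was not called either.

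Among 16 tested genes known to respond to ERK, 10 were higher and 6 lower with rFGF1WT, and 12 and 4 with rFGF1ΔHBS. The medians were 0.76 and 0.84. With each protein 7 were called higher and 0 lower. Over all tested loci, 3.26% and 3.37% were called higher, and 2.94% and 2.89% lower. With rFGF1WT the count was 4 or 5 on leaving out any library (5 without rFGF1WT replicate 1). With rFGF1ΔHBS it was 2 without either of its own libraries, 4 without HG replicate 1, and 5 or 6 without another. The rFGF1WT median was 0.36 with no filter and 0.40 with a mean of at least 5 FPKM required. The ETS factors *Etv4* and *Etv5*, like *Spry4*, went from low HG levels (0.0579 and 0.0786 for *Etv4*, 0.486 and 0.577 for *Etv5*) to 5.42 to 8.03 and 7.72 to 8.42 FPKM with FGF1. Both genes, like *Spry4*, reached the mean of 1 FPKM needed for a test only through the libraries with FGF1. Their log2 differences were 2.83 and 2.74 for *Etv4* (adjusted p = 0.0102 and 0.0115, limma) and 2.56 and 2.61 for *Etv5* (adjusted p = 0.00158 and 0.00199, limma). *Ccnd1*, which encodes cyclin D1, rose by 2.70 and 2.73, *Maff* by 1.35 and 1.21, and *Phlda1* by 1.30 and 1.31. The early genes *Egr1* (14.0 and 15.2 FPKM in HG, 13.3 to 15.0 with FGF1) and *Fos* (1.07 and 1.39 in HG, 0.788 to 1.71 with FGF1) were not called. *Fosl2* was lower, at 12.6 and 14.8 FPKM in HG, 2.66 and 7.94 with rFGF1WT, and 8.68 and 9.16 with rFGF1ΔHBS. It was not called (log2 differences -1.36 and -0.56, adjusted p = 0.166 and 0.494, limma). *Junb* and *Ier2* were listed at 0 in 3 and 4 of the 6 libraries, and *Jun* ranged from 1.95 to 19.2 within the HG group alone. Of 12 housekeeping genes, 1 (*Actb*) was called higher with rFGF1WT (log2 difference 0.86, adjusted p = 0.0450, limma), beside 3.26% of all tested loci. With rFGF1ΔHBS 0 were called, and 4 had an unadjusted p under 0.05 (limma), as had 24.9% of all tested loci. The *Actb* call was lost on leaving out any library. Their medians were 0.11 and 0.08.

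**Figure D4:**
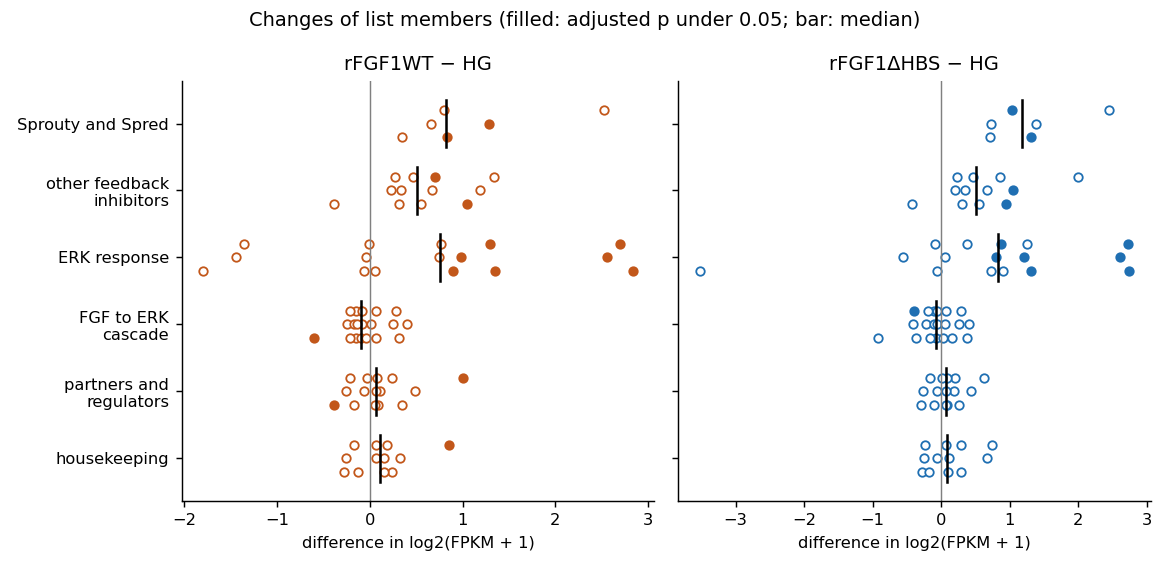
Difference in log2(FPKM + 1) from HG (horizontal axis) for the tested genes of each list, with rFGF1WT (left) and rFGF1ΔHBS (right); points are genes, filled ones have an adjusted p under 0.05 and black bars are list medians. The medians of the Sprouty and Spred genes (0.82 and 1.17), other feedback inhibitors (0.51 and 0.51) and ERK response genes (0.76 and 0.84) lie to the right of 0, and those of the cascade, partner and housekeeping lists lie within 0.11 of it.

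A wider class was read from the annotation in the table, the loci assigned to negative regulation of the ERK1 and ERK2 cascade, a choice made with the values in view. It held *Spry1*, *Spry2* and *Spry4* but none of the Spreds. Of its 47 tested loci, 4 were called higher and 2 lower with rFGF1WT, beside 3.26% and 2.94% of all tested loci. With rFGF1ΔHBS 2 were called higher and 0 lower, beside 3.37% and 2.89%. The medians were 0.08 and 0.00. Without the members, 44 loci were left, with *Errfi1* among those called higher and *Timp3* and *Flcn* called lower with rFGF1WT, and *Errfi1* called higher with rFGF1ΔHBS. *Timp3*, a metalloprotease inhibitor, was also called between the proteins, at 48.1 and 47.5 FPKM in HG, 8.13 and 8.21 with rFGF1WT and 44.8 and 45.4 with rFGF1ΔHBS. No Sprouty or Spred gene showed such a split by protein in both replicates.

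The loci with the pattern most like that of each called member were found by the root mean square (RMS) difference of centred log2(FPKM + 1) over the 6 libraries, among 10271 tested loci above 0 in all libraries. For *Spry4* they included a merged locus of *Mical2*, *AC132392.1* and *Micalcl* (RMS 0.05, r = 1.00) and the integrin gene *Itga3* (0.05, r = 1.00). *Itga3*, the alpha 3 integrin that anchors podocytes to the basement membrane, was at 65.1 and 64.3 FPKM in HG and 146.3 to 159.9 with FGF1. For *Spry2* they included *Lhfp* (0.08, r = 0.98) and *Mvd* (0.09, r = 0.98), which encodes an enzyme of the mevalonate pathway. For *Spred3* they were *Atg9b* (0.09, r = 0.98), *Plat* (0.09, r = 0.98), which encodes tissue plasminogen activator, and *Ccl20* (0.10, r = 0.98). The 6 points share 3 groups, and these correlations only describe them. For *Spry4* the likeness was found on the log2(FPKM + 1) scale, which shrinks its change. In FPKM its ratio to HG was 27.3 with rFGF1WT and 28.2 with rFGF1ΔHBS, a far larger rise than that of *Itga3*. The search was not run with the pseudocount of 0.1, with which the *Spry4* differences were 3.41 and 3.46.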

How the data were processed

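Poly(A) RNA of 6 MPC libraries in 3 groups of 2 was sequenced by the authors as paired ends, and groups were taken from the labels. The authors deposited FPKM per locus, and their methods name edgeR for summarizing them. The submitters' processing notes list HISAT2 2.0, StringTie 1.3.0, Bowtie 0.12.2 and the build mm8, without their roles. Positions came from GENCODE M21 (GRCm38), which held 99.6% of the listed Ensembl transcripts. Use of strand was not given in the sources used here, read depth is unknown, and 2 libraries per group limit the precision.

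Loci had to reach a mean of 1 FPKM, and log2(FPKM + 1) was fitted over all 6 libraries with limma 3.58.1 (R 4.3.3; lmFit, contrasts, eBayes with a trend) and adjusted by Benjamini-Hochberg over all of them. The fit was tested on simulated data. Plots used matplotlib 3.10.9, and tables pandas 2.3.3 and numpy 2.4.6, in Python 3.11.15.

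Members and lists were chosen with earlier results of these data known. The genes named are the members, list genes past the threshold (at most 6 per list), list genes whose proteins bind a member, and the 3 loci nearest in pattern to each called member. Marker genes, *Dusp6*, *Il17rd*, *Fgfrl1*, *Egr1*, *Fos*, *Fosl2*, *Jun*, *Junb*, *Ier2* and the genes of the annotation class were named after their values were seen. Protein sequences were not analysed here, and the values of some genes that these rules name are not reported here.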

Additional observations from a re-analysis of the deposited data

How the results depend on the processing

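The 15 alternatives were another pseudocount, 2 other filters, 3 other scalings, the 4 compared libraries alone, robust empirical Bayes, the replicate number as a block, and each of the 6 libraries left out. Summing a symbol's loci was not run, since each member had 1 locus. Over all members and comparisons, 220 alternative values kept their direction and their side of the threshold, 26 lost a call, 9 gained one and 6 turned direction. The 26 losses all fell on the few differences called above. *Spry2* with rFGF1WT lost its call in 10 alternatives and kept it in 5, and *Spred3* with rFGF1ΔHBS lost it in 8 and kept it in 6. *Spry4* lost it in 3 and kept it in 11 with rFGF1WT, and lost it in 5 and kept it in 9 with rFGF1ΔHBS. The values that turned direction were the *Spred1* difference with rFGF1WT (-0.605 to 1.305 with a library left out, the lowest without rFGF1WT replicate 2) and, between the proteins, *Spry1* (-0.493 to 0.332, above 0 without replicate 1 of rFGF1WT or rFGF1ΔHBS), *Spry4* (-0.031 to 0.089, below 0 without replicate 2 of either) and *Spred2* (-0.069 to 0.213, below 0 without rFGF1ΔHBS replicate 2). Members called with rFGF1WT (2) were 1 with no filter, 1 with a mean FPKM of at least 5, when only *Spry1*, *Spry2* and *Spred1* were tested, 1 with robust empirical Bayes, and 0 to 2 with a library left out. Those also 2-fold (1) were 0 at the stricter filter and 0 to 1 with a library left out. Members called with rFGF1ΔHBS (2), and those also 2-fold (2), were 1 with no filter, 0 at the stricter filter, and 0 to 2 with a library left out. *Spred2* was gained for rFGF1ΔHBS with each library scaled to the same FPKM sum (adjusted p = 0.0499, limma). With the 4 compared libraries alone both counts stayed at 2, but the members called changed. For rFGF1WT, *Spry2* was lost (adjusted p = 0.0920, limma) and *Spred3* gained (adjusted p = 0.04895, limma). For rFGF1ΔHBS, *Spred3* was lost (adjusted p = 0.0944, limma) and *Spred1* gained (adjusted p = 0.0278, limma). Between the proteins, members called (0), also at 2-fold (0), were 0 to 1 with a library left out. The labels do not say whether same-numbered libraries belong together. Their deviations from the group mean correlated at -0.021, 0.098 and -0.047 over 10562 loci, which with 2 libraries per group cannot decide it. With the replicate block, 0 members were called in any comparison, and the loci called were 41 (39 at 2-fold) with rFGF1WT, 39 (36) with rFGF1ΔHBS and 6 (6) between the proteins, from 654 (107), 661 (95) and 58 (37). Loci called with rFGF1WT were 407 with no filter, 170 with 4 libraries and 134 to 195 with a library left out, and those at 2-fold were 69 at the stricter filter. With rFGF1ΔHBS they were 386, 189 and 118 to 198, and those at 2-fold were 151 with a pseudocount of 0.1 and 145 scaled to the same sum. Between the proteins, they were 31 (18 at 2-fold) at the stricter filter and 43 to 107 (43 to 103) with a library left out. Of the list counts with rFGF1WT and rFGF1ΔHBS, the block left 3 and 3 ERK response genes and 0 and 0 in each other list. The cause of these shifts was not tested, beyond the fewer loci or libraries in the fit.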
